A study of Mus musculus with 12 samples.

Results

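Il6, Lif, Il11, Clcf1, Csf1, Csf2, Csf3, Il1a, Il33 and Socs3 were followed through a supernatant transfer experiment in 2 mouse cell lines. These 10 genes, of the 17335 listed in either count table, were chosen by name as cytokines of the IL-6 family, colony stimulating factors, IL-1 family alarmins and the feedback inhibitor of the IL-6 family receptors. The rule that picks them uses no measured value, but the list was drawn up with earlier results of these data known. All 10 were listed in both tables. After the filter on low counts, 8 were tested in PSC4, where Csf3 and Il1a were not, and 7 in KPC4, where Il6, Il11 and Csf3 were not.

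PSC4 is a murine line of stellate cells, which are resident stromal cells of the pancreas and a source of its fibroblasts, and KPC4 is a mouse line of pancreatic adenocarcinoma. In the first step, KPC4 cells received 10 µM gemcitabine, a nucleoside analogue used as chemotherapy, or vehicle for 6 h, were washed, and then conditioned starvation medium for 14 h. PSC4 cells spent 24 h in the resulting Gem-SU or Control-SU. For the second step, other PSC4 cultures spent 6 h in Gem-SU or Control-SU, were washed, and conditioned fresh starvation medium for 18 h. KPC4 cells then spent 24 h in this Gem-PSC-SU or Control-PSC-SU. Each of the 4 groups had 3 libraries that the labels call biological replicates. The labels do not say whether each replicate had its own batch of supernatant, so the spread between replicates may miss part of the variation between preparations. Only cultured lines were used, 1 of each cell type, so a response of the line and a response of the cell type cannot be told apart.

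Interleukin-6, LIF, interleukin-11 and CLCF1 are secreted ligands that signal through the shared receptor chain gp130, encoded by Il6st, together with partner chains. The receptor complex switches on JAK kinases and the transcription factor STAT3, and STAT3 induces Socs3, whose product binds gp130 and shuts the signal down. M-CSF, GM-CSF and G-CSF, the products of Csf1, Csf2 and Csf3, make myeloid cells grow and mature, while interleukin-1α and interleukin-33 are released by damaged cells and act through receptors of the IL-1 family. In pancreatic cancer, LIF and interleukin-6 from stromal cells and GM-CSF from tumour cells are well known as signals between the compartments.

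The upstream sequences of 6 of these genes are shown because their transcripts moved in PSC4 with groups that did not overlap, and because the motifs in them are those through which cytokine promoters are classically read. Windows were available by symbol in the RefSeq table for 8 of the 10 genes, not for Clcf1 and Csf3. Each is the 250 bases before the annotated start, 5′ to 3′ on the gene's own strand, in build GRCm38.p6. The bases just after the start were found in a GENCODE transcript of the gene for Il6, Lif, Il11 and Csf1, but not for Csf2 and Socs3. Capitals mark each match, on either strand and with N for any base, to TGANTCA (AP-1), TGACGTCA (CRE), TTCNNNGAA (STAT), TTGCNNAA (C/EBP) or the κB motif of NF-κB. Matches did not overlap one another, and positions are counted back from the start, with -1 the base just before it.
Il6, chr5:30012864-30013113, plus strand: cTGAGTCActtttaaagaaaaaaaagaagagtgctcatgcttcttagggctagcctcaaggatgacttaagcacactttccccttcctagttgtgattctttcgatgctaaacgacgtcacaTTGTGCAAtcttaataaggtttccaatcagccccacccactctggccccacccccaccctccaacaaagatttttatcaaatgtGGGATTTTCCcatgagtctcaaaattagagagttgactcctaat
Lif, chr11:4257318-4257567, plus strand: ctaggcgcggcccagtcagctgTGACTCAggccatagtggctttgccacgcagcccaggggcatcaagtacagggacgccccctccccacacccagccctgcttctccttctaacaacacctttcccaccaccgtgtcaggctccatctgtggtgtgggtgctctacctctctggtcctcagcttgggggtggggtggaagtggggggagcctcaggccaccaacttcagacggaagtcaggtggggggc
Il11, chr7:4778142-4778391, minus strand: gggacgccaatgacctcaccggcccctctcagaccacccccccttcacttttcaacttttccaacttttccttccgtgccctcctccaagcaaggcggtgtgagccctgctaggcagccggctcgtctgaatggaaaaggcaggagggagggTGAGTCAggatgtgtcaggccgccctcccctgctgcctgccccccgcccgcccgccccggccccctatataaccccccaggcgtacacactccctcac
Csf1, chr3:107760470-107760719, minus strand: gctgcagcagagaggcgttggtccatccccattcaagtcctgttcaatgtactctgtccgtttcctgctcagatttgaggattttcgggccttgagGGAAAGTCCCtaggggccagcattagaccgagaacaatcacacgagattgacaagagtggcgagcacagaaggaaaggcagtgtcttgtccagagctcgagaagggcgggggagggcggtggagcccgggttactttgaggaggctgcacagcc
Csf2, chr11:54249900-54250149, minus strand: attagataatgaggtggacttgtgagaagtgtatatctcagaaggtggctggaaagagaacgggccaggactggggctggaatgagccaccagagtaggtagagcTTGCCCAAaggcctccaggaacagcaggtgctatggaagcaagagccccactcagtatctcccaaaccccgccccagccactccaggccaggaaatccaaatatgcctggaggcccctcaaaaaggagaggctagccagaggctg
Socs3, chr11:117969367-117969616, minus strand: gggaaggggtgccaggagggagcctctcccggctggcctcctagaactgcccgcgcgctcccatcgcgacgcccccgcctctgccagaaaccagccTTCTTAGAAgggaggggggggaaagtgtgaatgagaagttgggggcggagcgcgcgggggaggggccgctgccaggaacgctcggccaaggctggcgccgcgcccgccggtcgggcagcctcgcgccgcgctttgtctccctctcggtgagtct

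The AP-1 motif, bound by Fos, Jun and Atf family proteins, was present in the windows of 3 gp130 ligand genes. It stood as TGAGTCA at -249 in Il6, as TGACTCA at -228 in Lif and as TGAGTCA at -98 in Il11. The Il11 window is 1 of 2 annotated for this gene, and the other window held no match to any of the 5 motifs. Over all 32851 promoter windows of the table, 6.75% held the AP-1 motif. The Il6 window also held the κB motif as GGGATTTTCC at -44 and the C/EBP motif as TTGTGCAA at -128. Csf1 had a κB match, GGAAAGTCCC at -154, and Csf2 a C/EBP match, TTGCCCAA at -145. κB was found in 1.41% of all windows and C/EBP in 9.56%. The Socs3 window held the STAT motif, TTCTTAGAA at -154, a motif in 7.02% of all windows. The CRE motif, in 1.55% of all windows, matched in none of these 6. Of the unprinted windows, that of Il1a had an AP-1 match (TGACTCA at -12) and 1 of the 2 for Il33 had a C/EBP match (TTGCATAA at -85). These are matches of letters and no measurement of binding.

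Library totals ran from 29559414 to 38138356 counts in PSC4 and from 26354328 to 34744150 in KPC4. The stellate and fibroblast markers summed to between 8139 and 8705 CPM (the count scaled to a common library total) in control PSC4. In Gem-SU PSC4 they summed to between 2457 and 3671 CPM. Lum was not listed, and 8 of the 11 tested were lower, against 22% of all genes tested. In KPC4 the 7 listed markers of this set, without Des, Pdgfrb, Thy1, Dcn and Lum, summed to between 2417 and 2806 CPM in controls and to between 1848 and 2208 CPM after Gem-PSC-SU. Nearly all of the KPC4 control sum was Vim, with a control mean of 2588 CPM there and 1671 CPM in PSC4. Col1a1 had control means of 7.92 CPM in KPC4 and 3388 CPM in PSC4, and Col3a1 21.9 and 990 CPM. Epithelial markers summed to at most 22.1 CPM in PSC4, where Epcam, Cdh1, Cldn4 and Esrp1 were not listed, and to 6016 CPM or more in every KPC4 library. Immune markers reached no more than 6.39 CPM, and Ptprc, the pan-leukocyte marker, was not listed in PSC4. Endothelial markers in PSC4 summed to between 0.609 and 1.43 CPM in controls and to between 2.70 and 4.85 CPM after Gem-SU, with no overlap. Of the 2 tested, 1 rose, against 24.3% of all genes tested. The part of these marker sums in the results that follow was not tested.

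In PSC4, 6 of the 8 tested genes rose after Gem-SU and 1 fell. Of these, Il6, Il11 and Csf2 passed the filter on low counts only through their Gem-SU libraries. With at least 10 counts required in every library, 5 genes were tested, of which 3 rose and 1 fell. Lif, Il6, Il11 and Clcf1, all of the gp130 ligands on the list, rose, as did Csf1 and Csf2, and Socs3 fell 3.01-fold. Il33 did not pass the test. A gene passed when edgeR's quasi-likelihood test gave a Benjamini-Hochberg adjusted p under 0.05 over all 13347 genes tested. By that rule 46.3% of all tested genes passed, 24.3% higher and 22% lower, so that a passing gene was common in this comparison. The median log2 fold change was 1.75 over the 8 genes and -0.00 over all genes tested, and the former is the same with Csf2 at the lower bound given for it. The 8 include Il6, Il11 and Csf2, counted as tested only through their Gem-SU libraries. In a bulk culture, more transcript per cell and more cells that make it cannot be told apart.

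**Figure D1:**
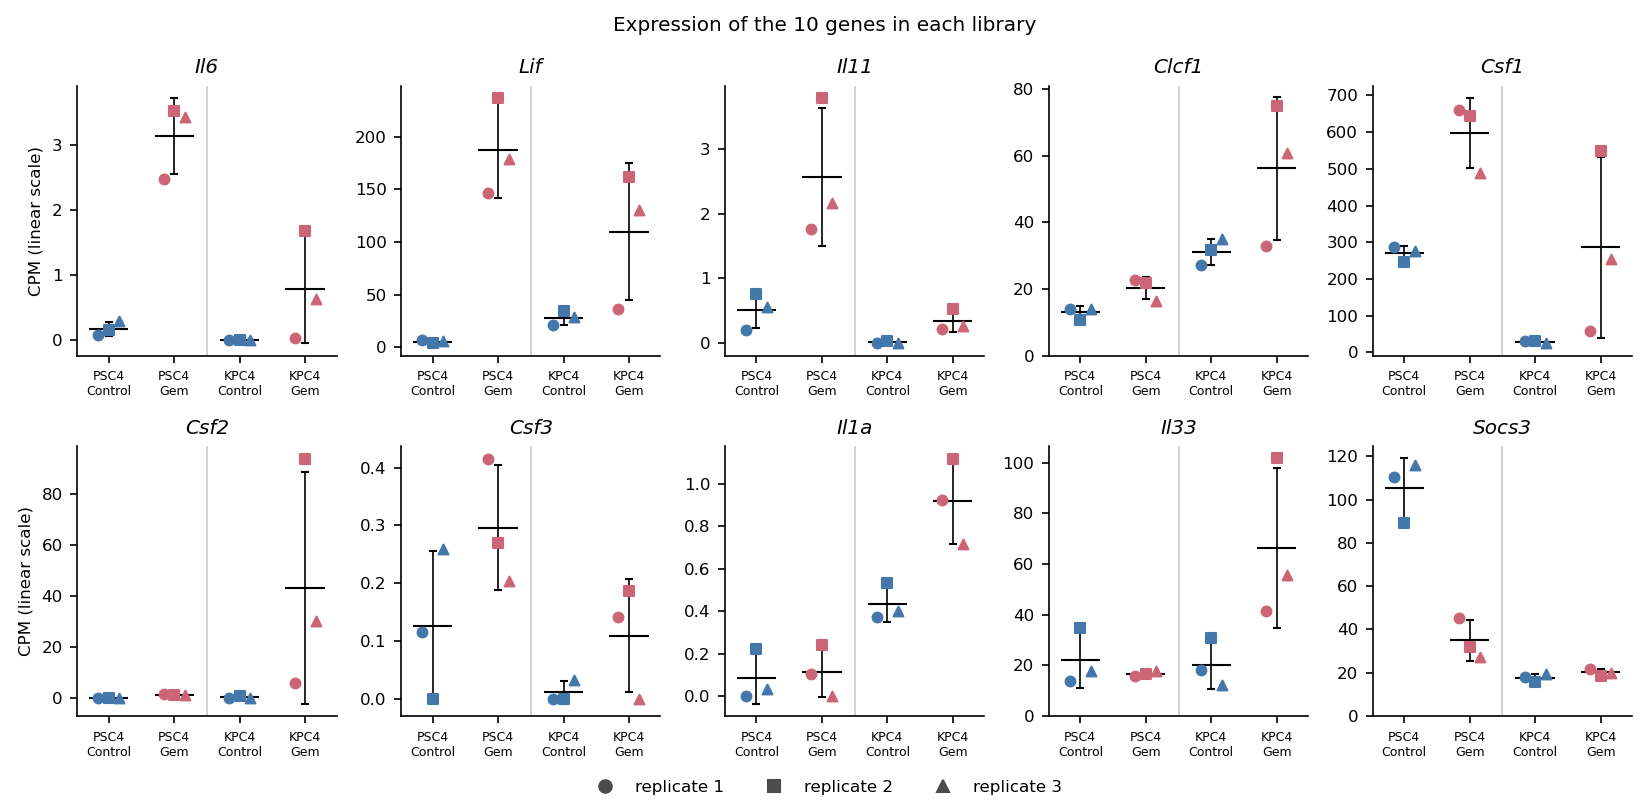
CPM on a linear scale for each of the 10 genes in the 12 libraries, blue for control and red for Gem supernatant, with the replicate number as the symbol, the group mean as a horizontal line and the SD as a bar. In PSC4 the Gem-SU libraries lie above every control for 6 genes and below every control for Socs3; in KPC4 Gem-PSC-SU replicate 2 is the highest library for 9 of the 10 genes.

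Lif, which encodes leukaemia inhibitory factor, measured 6.90, 3.76 and 5.75 CPM in the control libraries of PSC4 and 146, 237 and 179 CPM after Gem-SU. The lowest Gem-SU library stood far above the highest control. The mean went from 5.47 ± 1.59 CPM (SD, n = 3) to 188 ± 45.7 CPM (SD, n = 3), a log2 fold change of 5.10 (SE 0.29, edgeR adjusted p = 2.1e-05), or 34.2-fold. Among the 10 genes in PSC4, Lif had the smallest adjusted p, and it passed with each of the 6 libraries left out in turn.

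Il6, the founding cytokine of the family, was close to the limit of detection in control PSC4, with 3, 5 and 9 counts, and gave 95, 117 and 101 counts after Gem-SU. In CPM the controls were 0.0870, 0.158 and 0.293 and the Gem-SU libraries 2.47, 3.52 and 3.42, with no overlap. The log2 fold change was 4.11 (SE 0.52, edgeR adjusted p = 4.82e-04), a 17.3-fold rise, with group means of 0.179 ± 0.104 and 3.14 ± 0.579 CPM (SD, n = 3 each). Even after this rise, Il6 was at 1.29 CPM per kb of exon against 43.1 CPM per kb for Lif.

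Il11, another gp130 ligand, known for its part in fibrosis, measured 0.203, 0.758 and 0.553 CPM in controls and 1.77, 3.79 and 2.17 CPM after Gem-SU. The groups did not overlap, and Gem-SU replicate 2 was the highest. The log2 fold change was 2.35 (SE 0.56, edgeR adjusted p = 0.0092), and without Gem-SU replicate 2 it was 1.96 with an adjusted p of 0.0532, over the threshold. Clcf1, which encodes cardiotrophin-like cytokine factor 1, had the smallest rise of the 6: 14.0, 10.8 and 14.1 CPM in controls, and 22.6, 21.9 and 16.4 CPM after Gem-SU. Its log2 fold change was 0.65 (SE 0.20, edgeR adjusted p = 0.0302). That call was lost when any 1 of 5 of the 6 libraries was left out (adjusted p from 0.0556 to 0.111), held without Gem-SU replicate 3 (0.0226), and was also lost in the fit of all 12 libraries (adjusted p = 0.0846).

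Csf1, which encodes M-CSF, was already well expressed in control PSC4 at 288, 247 and 275 CPM. After Gem-SU it measured 661, 644 and 489 CPM, with every library above the controls. The means were 270 ± 21.1 and 598 ± 94.8 CPM (SD, n = 3 each), and the log2 fold change was 1.15 (SE 0.18, edgeR adjusted p = 0.00114). The adjusted p was 0.0954 in the fit of all 12 libraries, where the dispersion is shared with KPC4, and between 9.87e-04 and 0.00900 with each library left out. Per kb of exon Csf1 had the highest level of the 10 genes in both PSC4 groups, 51.1 CPM per kb in controls and 113 CPM per kb after Gem-SU.

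Csf2, which encodes GM-CSF, had 0 counts in all 3 control libraries of PSC4, and a count of 0 there allows at most 0.0870 to 0.0975 CPM. After Gem-SU it had 73, 41 and 37 counts, that is 1.90, 1.23 and 1.25 CPM. Set against a floor of 3 counts per control library, this is at least 15.7-fold higher (edgeR adjusted p = 7.72e-04). Csf3, the gene for G-CSF, stayed at the edge of detection with 4, 0 and 8 counts in controls and 16, 9 and 6 counts after Gem-SU. Those groups overlapped, and without the low-count filter its log2 fold change was 1.23 (edgeR adjusted p = 0.433).

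Neither alarmin of the IL-1 family passed the test in PSC4. Il33, the ligand of the receptor chain encoded by Il1rl1, measured 13.9, 34.6 and 17.6 CPM in controls and 15.8, 16.4 and 17.7 CPM after Gem-SU. Control replicate 2 was the outlying library, and the 5 others lay between 13.9 and 17.7 CPM. The log2 fold change was -0.41 (SE 0.32, edgeR adjusted p = 0.319), and it turned to 0.050 (adjusted p = 0.849) without control replicate 2. Il1a had 0, 7 and 1 counts in controls and 4, 8 and 0 counts after Gem-SU, too few to be tested. Without the filter its log2 fold change was 0.45 (edgeR adjusted p = 0.843).

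Socs3, the inhibitor that STAT3 induces, went the other way from the ligands. It measured 111, 89.2 and 116 CPM in controls and 45.5, 32.0 and 27.3 CPM after Gem-SU, so that the highest Gem-SU library was below the lowest control. The log2 fold change was -1.59 (SE 0.21, edgeR adjusted p = 6.32e-04), with means of 105 ± 14.2 and 34.9 ± 9.44 CPM (SD, n = 3 each). It passed with each of the 6 libraries left out (log2 fold change from -1.83 to -1.44). Beside these changes, all Gem-SU libraries lay above all controls for 6 of the 8 tested genes, against 29.3% of all genes tested, and below for 1, against 27.1%. The 6 include Il6, Il11 and Csf2, which passed the filter on low counts only through their Gem-SU libraries.

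In the authors' deposited table for PSC4, the same 7 genes had an adjusted p under 0.05. The share of all genes that pass there is not given here, but the DESeq2 refit called 6872 of 15708 genes. The authors' deposited table gave log2 fold changes of 5.33 for Lif, 4.11 for Il6, 7.96 for Csf2 and -1.64 for Socs3.

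**Figure D2:**
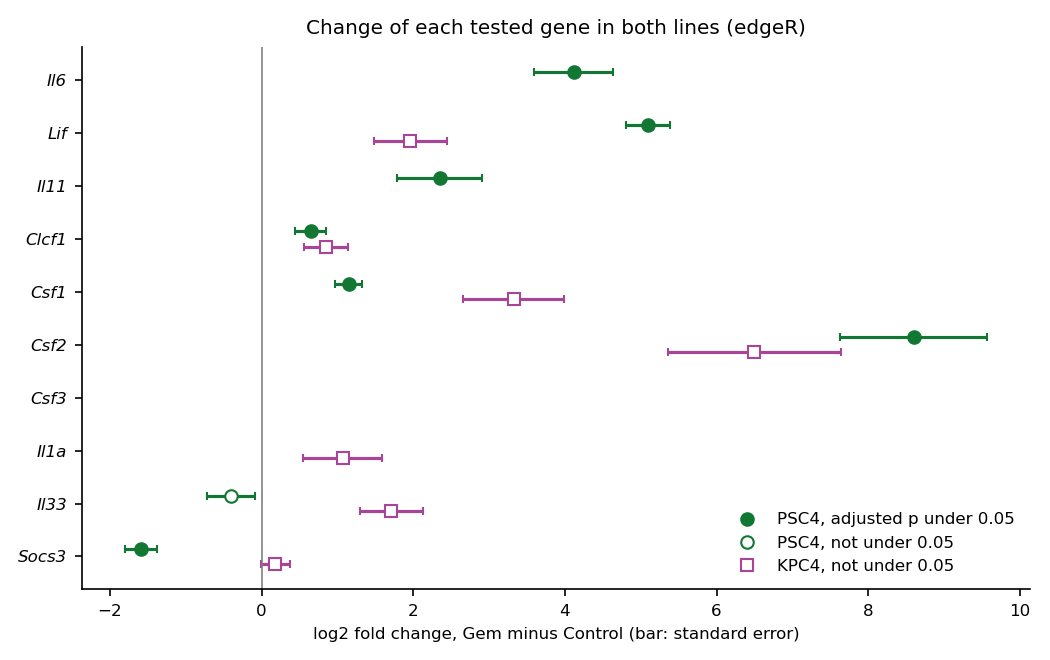
log2 fold change of Gem against control supernatant (x axis, edgeR, bar: standard error) for each tested gene, with PSC4 as green circles, filled where the adjusted p is under 0.05, and KPC4 as open purple squares. The squares are all open: no gene passed in KPC4. The PSC4 value of Csf2 is a fitted value against controls at 0 and depends on the fit's prior count.

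Of the 6 tested chains of the gp130-type receptors, 4 fell in PSC4 and none rose, where 22% of all genes tested fell. Osmr and Il27ra, among the 6, are not chains for the ligands on the list, and Cntfr was too low to be tested. Lifr, the chain that pairs with gp130 for LIF, ran from 240 to 309 CPM in controls and from 47.0 to 63.1 CPM after Gem-SU, a log2 fold change of -2.32 (SE 0.18, edgeR adjusted p = 6.13e-05). Il6st, gp130 itself, went from 868 to 1362 CPM in controls to 417 to 482 CPM after Gem-SU (-1.38, SE 0.21, edgeR adjusted p = 0.00109). Il11ra1 (-1.07) and Osmr (-0.85) fell as well. Il6ra, the chain specific for interleukin-6, had all Gem-SU libraries above controls and a log2 fold change of 0.38 (edgeR adjusted p = 0.0768).

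Downstream of the receptors, the transcripts of the STAT proteins were lower. Of 9 genes of the JAK-STAT chain, 2 rose and 5 fell (24.3% and 22% of all genes), with Stat3 at 243 to 263 CPM in controls and 100.2 to 112 CPM after Gem-SU (-1.23, SE 0.13, edgeR adjusted p = 2.81e-04). Stat5a (-1.59) and Stat5b (-0.95), used by the receptors of GM-CSF, fell too, and Ptpn11, the phosphatase SHP2 that binds gp130, rose (0.55). Among 9 other feedback inhibitors 3 rose and 2 fell, 5 of 9 against 46.3% of all genes. Socs7 (1.19) and Socs2 (1.05) rose, while Pias1 (-0.88) and Socs5 (-0.37) fell, so the inhibitors moved in both directions. Of 14 genes known as STAT3 targets, 6 rose and 6 fell, again beside 24.3% and 22% of all genes. Junb rose by 3.40, Myc by 1.73 and Mcl1 by 1.01 on the log2 scale, and Il4ra, the interleukin-4 receptor chain, fell by 1.49.

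Of 12 genes that control cytokine transcription and mRNA decay, 8 rose in PSC4 and 1 fell, where 24.3% of all genes rose. Atf3, a stress-induced factor of the ATF family, had 3.02 to 4.96 CPM in controls and 903 to 1192 CPM after Gem-SU (log2 fold change 8.07, SE 0.29, edgeR adjusted p = 1.45e-05). Fosl1, an AP-1 subunit, rose by 3.71 on the log2 scale, and the NF-κB feedback genes Tnfaip3 and Nfkbia rose by 2.31 and 2.00. The median log2 fold change of these 12 genes was 1.32, against -0.33 for all 72 tested pathway genes, of which 21 rose and 28 fell.

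Other genes of the cytokine families were read against the 24.3% of all tested genes that rose and the 22% that fell. Of 3 further gp130 ligands tested, Ctf1, cardiotrophin-1, fell (-1.02, edgeR adjusted p = 0.0493) and none rose. Flt3l (-1.35) and Il34 (-1.16), the other ligand of the M-CSF receptor, fell. Csf1r itself reached at most 1.11 CPM in any PSC4 library. All its Gem-SU libraries lay above the controls, with a log2 fold change of 1.35 (SE 0.51, edgeR adjusted p = 0.0558). In the IL-1 family 1 of 8 tested genes rose and 3 fell, so that 4 of 8 passed beside 46.3% of all genes. Il1rn, the secreted antagonist of interleukin-1, went from 112 to 159.8 CPM in controls to 7.87 to 22.2 CPM after Gem-SU (-3.37, SE 0.39, edgeR adjusted p = 3.36e-04). Il1r1 (-0.98) and Sigirr (-1.03) fell, and the accessory chain Il1rap rose (1.10). Il1rl1, the interleukin-33 receptor chain, was abundant in both groups, from 841 to 1016 CPM in controls and from 786 to 903 CPM after Gem-SU (-0.18, edgeR adjusted p = 0.397). Among the genes for shedding and processing 5 of 7 fell. They included the calpain genes Capn1 (-1.20) and Capn2 (-0.69), whose products cleave pro-interleukin-1α, and Adam10 (-0.80), a sheddase.

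**Figure D3:**
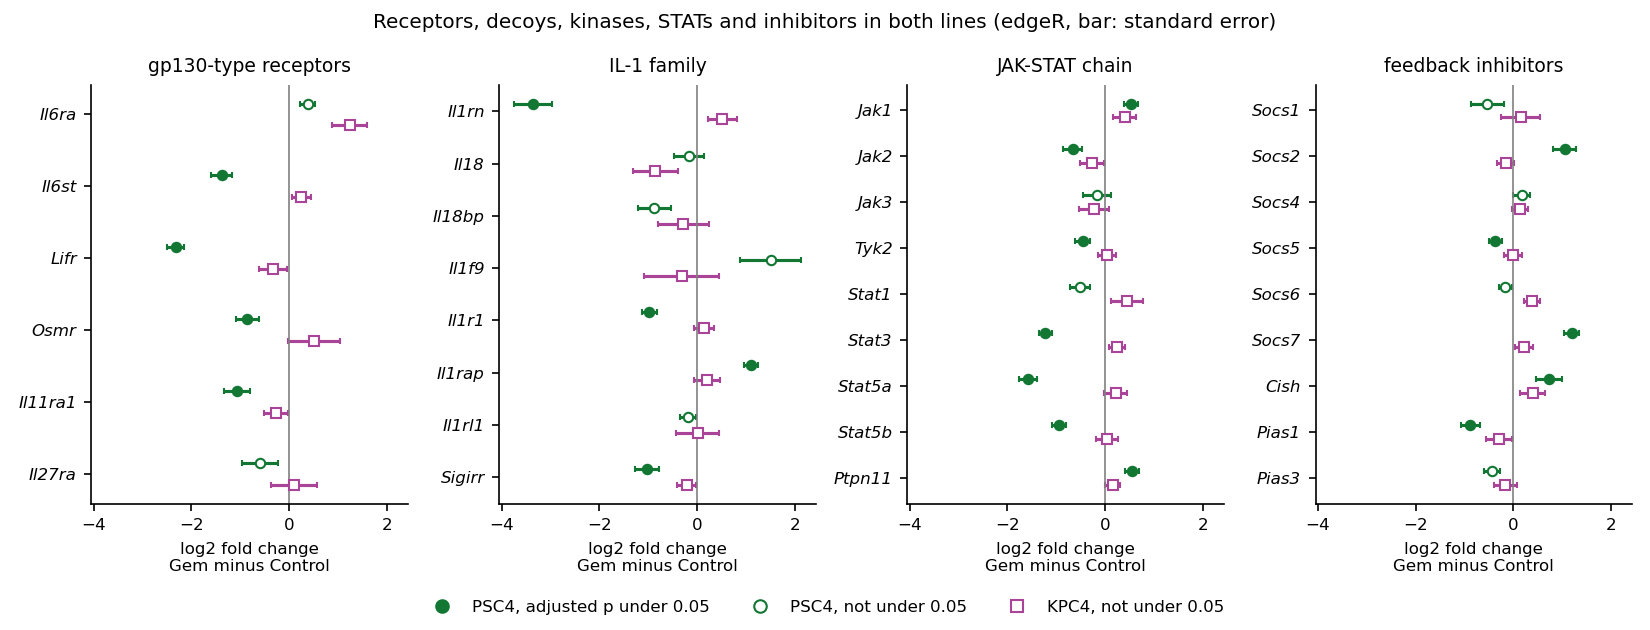
log2 fold change of Gem against control supernatant (x axis, edgeR, bar: standard error) for receptors, IL-1 family genes, the JAK-STAT chain and feedback inhibitors, with PSC4 as green circles, filled where the adjusted p is under 0.05, and KPC4 as open purple squares. Lifr, Il6st, Il1rn, Stat3 and Stat5a lie to the left of 0 in PSC4, with values from -3.37 to -1.23, while the KPC4 values of these 5 genes lie between -0.33 and 0.52.

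In KPC4 after Gem-PSC-SU, Csf2, Csf1, Lif and Il33 had the largest values among the tested genes, but edgeR's test called none of the 7. It called 0 of 13236 genes, 0% of the table, although 17% had an unadjusted p under 0.05, among them 5 of the 7. With the replicate number as a block, Csf2, Il33 and Lif passed, against 8.85% of all genes. The labels do not give this pairing, which was taken from correlations within the same values. DESeq2 called 5 of the 9 genes it tested, against 5.6% of all genes, and Il6, 1 of the 5, had no count in any control library. All 7 tested genes had a positive log2 fold change, with a median of 1.71 against -0.02 over all genes tested. Among them, Csf2 passed the filter on low counts only through its Gem-PSC-SU libraries.

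The 3 Gem-PSC-SU libraries differed widely from each other. Replicate 2 was the highest of the 3 for 9 of the 10 genes and replicate 1 the lowest for 7. Over all genes tested, replicate 2 was the highest for 39.7% and replicate 1 the lowest for 39.8%, and among the 957 genes with at least a 2-fold higher fitted level these shares were 78.4% and 73.7%. Without Gem-PSC-SU replicate 1, edgeR called Il6, Lif, Clcf1, Csf1, Csf2 and Il33, against 8.3% of all genes. In that fit Il6 and Csf2 passed the filter on low counts only through the remaining Gem-PSC-SU libraries. Without control replicate 2 it called Csf2 alone, and no gene of the 10 with any other library left out.

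Csf2 measured 0.115, 1.07 and 0.234 CPM in control KPC4 and 5.91, 93.9 and 30.3 CPM after Gem-PSC-SU. The groups did not overlap, and the Gem-PSC-SU libraries spanned a wide range, from replicate 1 at the bottom to replicate 2 at the top. The means were 0.472 ± 0.519 and 43.4 ± 45.4 CPM (SD, n = 3 each), and the log2 fold change was 6.50 (SE 1.14, edgeR adjusted p = 0.112). Leaving out replicate 2 of Gem-PSC-SU gave 5.24, leaving out its replicate 1 gave 7.02, and leaving out control replicate 2 gave 7.95. With the replicate block the edgeR adjusted p was 1.99e-04. Over all alternatives the adjusted p ran from 1.58e-68 (DESeq2 with the block, added after seeing the data) to 0.509 (edgeR). Per kb of exon the means after Gem-PSC-SU were 54.2 ± 56.8 CPM for Csf2 and 54.3 ± 46.7 CPM for Csf1 (SD, n = 3 each). Replicate 2 was the highest library for both genes.

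Csf1 measured 31.0, 30.7 and 24.3 CPM in control KPC4 and 57.7, 548 and 255 CPM after Gem-PSC-SU. All 3 were above the controls, and the means were 28.6 ± 3.80 and 287 ± 246 CPM (SD, n = 3 each). The log2 fold change was 3.32 (SE 0.66, edgeR adjusted p = 0.115), and with the block it was 2.88 (edgeR adjusted p = 0.158). Leaving out replicate 2 of Gem-PSC-SU gave 2.45, and leaving out its replicate 1 gave 3.81. Its adjusted p ran from 0.00107 to 0.509 over all alternatives. Csf3 had 0, 0 and 1 counts in controls and 4, 6 and 0 counts after Gem-PSC-SU, at the limit of detection.

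Lif measured 20.8, 34.3 and 29.3 CPM in control KPC4 and 36.7, 162 and 130 CPM after Gem-PSC-SU. Replicate 1 stood just above the highest control and the other 2 far above. The log2 fold change was 1.96 (SE 0.48, edgeR adjusted p = 0.124), and with the block 1.75 (edgeR adjusted p = 0.0220). Over all alternatives its adjusted p ran from 1.77e-10 (DESeq2 with the block) to 0.517 (edgeR). Clcf1, at 27.1, 31.8 and 34.9 CPM in controls and 32.9, 75.0 and 60.9 CPM after Gem-PSC-SU, overlapped through replicate 1 (log2 fold change 0.85, SE 0.29, edgeR adjusted p = 0.214, and 0.0512 with the block).

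Il6 had no count in the 3 control libraries of KPC4 and 1, 54 and 17 counts after Gem-PSC-SU. Its mean over the Gem-PSC-SU libraries was at least 8.52-fold above the floor of 3 counts per control library, although replicate 1 by itself was below that floor. It did not pass the low-count filter, and without the filter edgeR gave an adjusted p of 0.168 and DESeq2 gave 0.00342 (range over all alternatives 0.00342 to 0.521). Il11 had 0, 1 and 0 counts in controls and 6, 17 and 7 counts after Gem-PSC-SU, a ratio of summed counts of 33.9 per unit of depth (95% interval of counting error only, 5.64 to 1385). Without the filter its edgeR adjusted p was 0.187, and it ranged from 0.0239 to 0.187 over the alternatives that could test it.

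Il33 measured 18.1, 30.6 and 12.02 CPM in control KPC4 and 41.4, 102 and 55.6 CPM after Gem-PSC-SU, with no overlap. Its log2 fold change was 1.71 (SE 0.42, edgeR adjusted p = 0.124), the same with the block (1.71, edgeR adjusted p = 0.00397). Over all alternatives its adjusted p ran from 5.28e-13 (DESeq2 with the block) to 0.509 (edgeR). Il1a was 0.375, 0.534 and 0.402 CPM in controls and 0.926, 1.12 and 0.716 CPM after Gem-PSC-SU (log2 fold change 1.07, SE 0.52, edgeR adjusted p = 0.332). Here the groups did not overlap, but the values rest on 12 to 36 counts per library.

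Socs3 showed the smallest difference of the 7 in KPC4, 18.0, 15.8 and 19.3 CPM in controls and 21.8, 18.7 and 19.8 CPM after Gem-PSC-SU. The groups overlapped, and the log2 fold change was 0.18 (SE 0.20, edgeR adjusted p = 0.654), with adjusted p from 0.485 to 0.808 over all alternatives. Across the 10 genes, 7 had every Gem-PSC-SU library above every control, 5 of them among the tested genes, against 11.8% of all genes tested. None lay wholly below, against 10.9%. Csf2, among those 5 tested genes, passed the filter on low counts only through its Gem-PSC-SU libraries. In the authors' deposited table for KPC4, 6 of the 10 genes had an adjusted p under 0.05. The share of all genes that pass there is not given here, but the DESeq2 refit called 5.6% of all genes. The authors' deposited table gave log2 fold changes of 6.49 for Csf2, 3.38 for Csf1 and 1.71 for Il33.

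**Figure D4:**
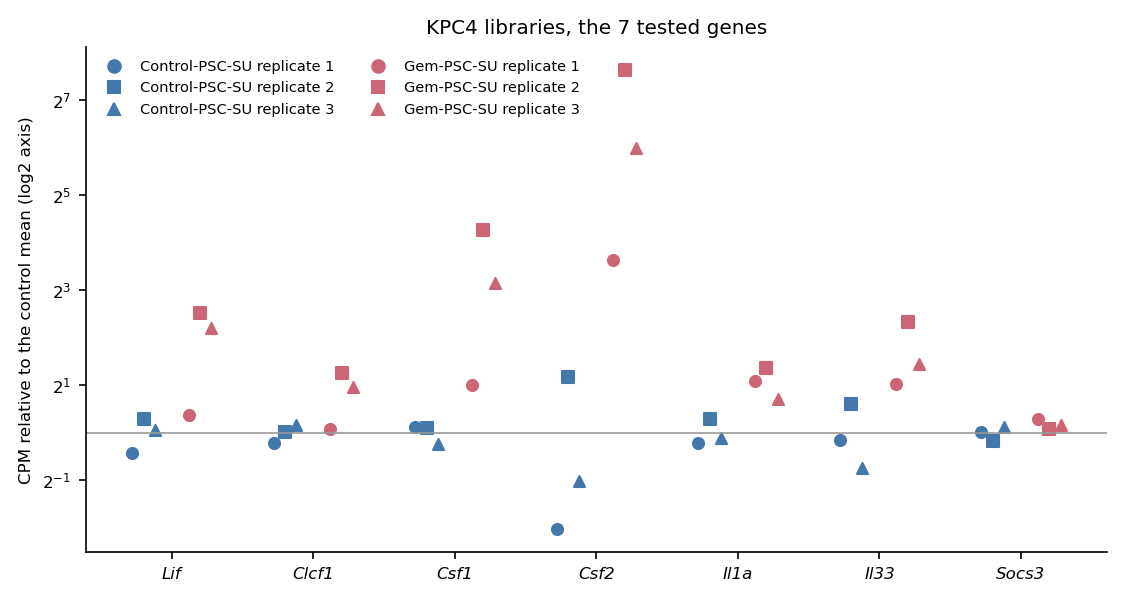
CPM of each KPC4 library divided by the mean of the 3 controls (y axis, log2) for the 7 tested genes, with controls in blue, Gem-PSC-SU in red and the replicate number as the symbol. Replicate 2 of Gem-PSC-SU is on top for every gene but Socs3, and replicate 1 is the lowest of the red points for Lif, Clcf1, Csf1, Csf2 and Il33.

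None of the 69 tested pathway genes passed in KPC4. With the replicate block 8 passed, all higher, where 8.85% of all genes passed. The genes of cytokine transcription and mRNA decay had the highest median of the 9 lists, 1.16, and 5 of these 12 passed with the block. Atf3 ran from 5.16 to 15.2 CPM in controls and from 198 to 1591 CPM after Gem-PSC-SU (log2 fold change 6.65, SE 0.82, edgeR adjusted p = 0.103, and 0.00212 with the block). Zfp36, which marks cytokine mRNAs for decay, had a log2 fold change of 1.99 (edgeR adjusted p = 0.112, and 0.0199 with the block). Il6ra was 3.54 to 6.88 CPM in controls and 7.55 to 15.4 CPM after Gem-PSC-SU (1.24, edgeR adjusted p = 0.164, and 0.0151 with the block), and Kitl, the ligand of the receptor Kit, had 0.92 (edgeR adjusted p = 0.175, and 0.0228 with the block). Junb (2.03) and Icam1 (1.97), both STAT3 targets, did not pass with or without the block. Of the 13 STAT3 targets tested in KPC4, 1 passed with the block, against 8.85% of all genes, and DESeq2 called 4, against 5.6%. Lifr, Il6st and Stat3 had log2 fold changes of -0.33, 0.25 and 0.24, none passing either way.

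The 2 responses were compared by the difference of their log2 fold changes in 1 fit of all 12 libraries, where line and transfer step cannot be told apart. Of 9 genes tested, 3 had a different response, against 9.85% of all genes. Lif rose more in PSC4, by 3.09 on the log2 scale (SE 0.60, edgeR adjusted p = 0.00703), and passed with each of the 12 libraries left out. Socs3 differed by -1.83 (SE 0.29, edgeR adjusted p = 0.00232), likewise with each library left out. Il33 differed by -2.15 (SE 0.57, edgeR adjusted p = 0.0306), but passed in 7 of 12 such fits, with adjusted p up to 0.0780. Csf1 differed by -2.21 (SE 0.71, edgeR adjusted p = 0.0661, and 0.253 with the block), so a larger change in KPC4 was not shown. The Csf1 difference did pass with DESeq2 as the test, and in edgeR without Gem-PSC-SU replicate 1 (range with each library left out, 0.00109 to 0.145). For Clcf1 the difference was -0.25 (edgeR adjusted p = 0.716). Il6, Il11, Csf2 and Il1a, all near 0 in at least 1 control group, had edgeR adjusted p of 0.287, 0.250, 0.694 and 0.823, with SEs between 1.20 and 2.83 on the log2 scale.

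The lines also differed in their control levels, with the line and the kind of supernatant changing together. In the fit of all 12 libraries 7 of 9 genes differed between control KPC4 and control PSC4, against 42.9% of all genes. Of the 7, Il6, Il11 and Csf2 passed the filter on low counts only through Gem libraries, which this contrast does not compare. With at least 10 counts required in every library, 4 of 5 tested genes differed, against 4739 of 11211 genes. Lif (2.37, SE 0.44, edgeR adjusted p = 6.07e-04) and Clcf1 (1.28, SE 0.27, edgeR adjusted p = 0.00142) were higher in control KPC4. Socs3 (-2.57, SE 0.21), Csf1 (-3.23, SE 0.54) and Il11 (-5.16, SE 0.99) were lower there, with edgeR adjusted p of 3.62e-07, 2.66e-04 and 7.90e-04. Those 5 genes passed with each of the 6 control libraries left out, but the Il11 value rests on 0, 1 and 0 counts in control KPC4. Il6 (edgeR adjusted p = 0.0261) and Csf2 (0.0351) passed too, each in only 2 of the 6 such fits, and Il33 did not pass (-0.11, SE 0.40, edgeR adjusted p = 0.851).

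On that common scale, Gem-SU PSC4 had the highest mean of the 4 groups for Lif, Il6, Il11, Csf1 and Csf3. Gem-PSC-SU KPC4 was the highest for Csf2, Il33, Clcf1 and Il1a, and control PSC4 for Socs3. For Lif the order ran on from Gem-SU PSC4 to Gem-PSC-SU KPC4, whose libraries overlapped it, then to control KPC4 and control PSC4. For Csf1 the Gem-PSC-SU KPC4 libraries overlapped both Gem-SU PSC4 above and control PSC4 below, with control KPC4 apart at the bottom. For Csf2 no neighbours overlapped, in the order Gem-PSC-SU KPC4, Gem-SU PSC4, control KPC4, control PSC4. For Socs3 the 2 KPC4 groups overlapped at the bottom of the order, and for Il33 control PSC4, control KPC4 and Gem-SU PSC4 overlapped in turn.

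Genes whose log CPM followed these most closely over the 12 libraries, after each line's mean was subtracted, were sought among 11476 genes. Lif was closest to Hbegf (Pearson r = 0.994), which encodes a growth factor of the EGF family, and to Btg2 (0.992). Socs3 was closest to Il4ra (0.992) and Tpcn1 (0.987). Csf2 was closest to Spdl1 (0.995) and Cdt1 (0.990), both genes of the cell cycle, and Csf1 to Sqstm1 (0.983) and Zfp869 (0.976). Clcf1 followed Ier3 (0.972) and Tjap1 (0.971), and Il33 followed Ripk1 (0.957) and Tagap1 (0.952). Between the genes themselves, Csf1 and Clcf1 were closest (0.919), followed by Csf1 and Csf2 (0.915), and Lif and Socs3 were the most opposed (-0.847). The 12 points share their libraries, treatment groups and depth, so these values describe the pattern and carry no test.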

How the data were processed

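Total RNA of 12 cultures was sequenced. The authors deposited a raw count table for each line, with genes in rows and libraries in columns. Per the submitters' processing notes, FastQC, Trim Galore 0.6.10, cutadapt 5.2, Salmon, R 4.5.1 and DESeq2 were used with build GRCm39, and roles, annotation and counting rule are not given in the sources used here. The deposited counts are whole numbers that may be rounded Salmon estimates, so reads shared by copies, overlapping or antisense genes may be split. The smallest row total is 0 in the PSC4 table and 11 in the KPC4 table, so a gene not listed may have been removed as low. The authors also deposited, per line, a comparison table with log2 fold changes, p-values and adjusted p-values, printed only where named. In all, 0 sample columns were unused.

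Symbols and exon lengths came from GENCODE M21 and matched 99.7% of the identifiers in both tables, and promoter windows came from RefSeq (GRCm38.p6), whose coordinates are not those of the authors' build. Il36 genes were matched by their older Il1f symbols.

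The lines were fitted separately in R 4.3.3 with edgeR 4.0.16 (filterByExpr, TMM, robust quasi-likelihood test, Benjamini-Hochberg over all genes tested, threshold 0.05). The SE is the log2 fold change divided by the root of F. CPM is scaled by TMM within the line, or over all 12 libraries for the order of groups. The difference between lines was an interaction over 12 libraries. Counts were treated as biological replicates per the labels. A fold against a group at 0 uses a floor of 3 counts per library, and floors and intervals cover counting error only. At these depths 3 counts are 0.0780 to 0.113 CPM.

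In KPC4, deviations from the group mean correlated at 0.351, 0.436 and 0.211 between libraries of the same number. The numbers were therefore taken to pair them, which rests only on the values, and blocked results are printed where they change a call. In PSC4 they did not pair (0.428, -0.0548 and 0.102).

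The genes were chosen by name, and the genes and lists were chosen with earlier results of these data known. Named pathway genes are those past the threshold in a list if 4 or fewer, otherwise the 4 with the smallest p, or 2 if none passed; genes outside that rule (Il6ra and Csf1r in PSC4, Il1rl1, Lifr in KPC4) were named after their values were seen, as the receptors of listed ligands. A result that this rule names in the shedding list is not reported here. Closest genes are the 2 with the highest r of log CPM (prior count 2). Alternatives were the replicate block, DESeq2 1.42.0 as the test or for size factors only, a stricter filter (10 counts or more in each library) or none, robust estimation off, 1 fit over all 12 libraries and each library left out. DESeq2 with the block was added after seeing the data. The scripts were tested on simulated data.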

Additional observations from a re-analysis of the deposited data

Results flagged for a closer look

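Each of the following differences between lines, given as the log2 fold change in PSC4 minus that in KPC4, passed the test of the difference itself (edgeR, adjusted p under 0.05), with line and transfer step not separable. Among the cytokine genes and their inhibitor these were Lif (3.09), Il33 (-2.15) and Socs3 (-1.83). Among the receptors and decoys they were Il1rn (-3.92), Lifr (-2.05), Il4ra (-1.70), Il6st (-1.68) and Il1r1 (-1.17). Among the STAT genes they were Stat5a (-1.86), Stat3 (-1.52) and Stat5b (-1.04). Socs2 (1.16), Socs7 (0.92) and the survival gene Mcl1 (0.97) changed more upwards in PSC4. With each of the 12 libraries left out in turn, the difference passed in 7 fits for Il33, 3 for Stat5b (adjusted p up to 0.0716), 5 for Socs7 (up to 0.0990) and 10 for Socs2 (up to 0.0667), and in all 12 for the other 10 genes. In all, 16 of the 71 tested pathway genes differed, 4 higher and 12 lower in PSC4, against 9.85% of all genes tested. Those not listed above were Bcl2l1 (1.21), Nfkbiz (-1.36), Bcl3 (-2.16), Cebpb (-2.52) and S100a13 (-1.43). Cebpb passed in 10 and S100a13 in 4 of the fits with a library left out, and the others in all 12.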

How the results depend on the processing

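Of the comparisons of single genes with an alternative, 167 kept direction and side of the threshold, 22 came to pass, 8 no longer passed and 1 reversed: Il33 in PSC4, whose log2 fold change ran from -0.65 without control replicate 1 to 0.050 without control replicate 2. In PSC4, requiring at least 10 counts in every library left 4 of the 10 genes called (5 tested), and left 4 in the contrast of control groups. In KPC4 the calls among the 10 genes went from 0 to 3 with the replicate block, 5 with DESeq2, 6 in 1 fit over all 12 libraries and 6 with DESeq2 and the block. The counts of 5 and 6 include Il6, which had no count in control KPC4. Calls among all KPC4 genes went from 0 to 1171, 806, 610 and 2137 in that order, and among pathway genes to 8, 14, 10 and 18. Genes with a different response between lines went from 1343 to 2988 with the block and 2163 with DESeq2. Why these counts differ was not tested.

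With each library left out, calls among the 10 genes ran from 5 to 7 in PSC4, 0 to 6 in KPC4, 2 to 4 for the difference between lines and 5 to 7 between controls. Over all genes they ran from 4061 to 6826, 0 to 1129, 610 to 1993 and 4954 to 5418, and among pathway genes from 36 to 49 in PSC4 and 0 to 13 in KPC4. The lowest PSC4 count came without Gem-SU replicate 2, and the KPC4 counts of 6 and 1129 without Gem-PSC-SU replicate 1. In PSC4 the numbers share only a number, and the block called 7 of the 10 genes, 7266 genes in all and 55 pathway genes. Depth limits Il6, Il11 and Csf3 in KPC4 controls, and Il6, Csf2, Csf3 and Il1a in PSC4 controls, to fewer than 10 counts per library.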
